A study of Capra hircus with 6 samples.

Results

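GAD1, GAD2, SLC32A1, ABAT, SLC17A6, SLC17A7 and SLC17A8, the genes by which neurons make and break down GABA and load GABA or glutamate into synaptic vesicles, were followed in goat hypothalamus before and at puberty. These 7 genes were chosen by symbol, out of 20225 genes in the deposited mRNA table, and all 7 were found and passed the expression minimum. Hypothalamus was taken from 3 pubertal female Anhuai goats of 4.5 to 5 months and 3 prepubertal female Anhuai goats of 2.5 to 3 months, and 1 library was sequenced per goat. All goats were kept alike and no treatment was compared. Puberty was judged from estrus and the vulva, and the pubertal goats were sampled in the late follicular phase, so stage, age and cycle phase cannot be told apart. Values are FPKM, fragments scaled to transcript length and to a total of fragments of the library, summed over the transcripts of a gene. Values of a stage are given in the order of replicates 1, 2 and 3. Low FPKM values fell on steps worth 1 fragment each, from which the scaling total was 17319447 to 23585604 fragments per library, lowest in pubertal replicate 3. These totals are well below the mapped reads that the paper reports, so they are not the full depth of the libraries.

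GABA is the main inhibitory transmitter of the hypothalamus and glutamate the main excitatory transmitter, and both reach the neurons that release gonadotropin-releasing hormone. GAD1 and GAD2 encode the enzymes GAD67 and GAD65, which turn glutamate into GABA. SLC32A1 encodes VGAT, the transporter that fills vesicles with GABA or glycine, and ABAT encodes GABA transaminase, which begins the breakdown of GABA in mitochondria. SLC17A6, SLC17A7 and SLC17A8 encode the vesicular glutamate transporters VGLUT2, VGLUT1 and VGLUT3. In textbook accounts SLC17A6 is the form of hypothalamus and thalamus, SLC17A7 that of the cerebral cortex, and SLC17A8 that of small groups of neurons that often use another transmitter as well.

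The tissue was checked against marker genes. PMCH, AGRP, POMC, GNRH1 and SIM1, which mark hypothalamic neurons, were above 0 in all 6 libraries, AVP was listed at 0 in all 6, and NKX2-1, RAX, OXT, HCRT and TRH were not matched by symbol and were not analysed here. Several of these markers varied widely. AGRP, which marks a group of GABA neurons, was at 5.69 to 28.3 FPKM in the pubertal and 22.3 to 176 FPKM in the prepubertal libraries (unadjusted p = 0.0238, adjusted p = 0.883 from limma). GNRH1 was at 13.5 to 16.0 FPKM in the pubertal and 5.34 to 11.6 FPKM in the prepubertal libraries, without overlap (unadjusted p = 0.00577, adjusted p = 0.779 from limma). POMC was at 429 FPKM in pubertal replicate 3 and at 22.9 to 85.1 FPKM in the other libraries (unadjusted p = 0.0473, adjusted p = 0.959 from limma). Marker genes of cortex and hippocampus summed to between 6.28 and 7.89 FPKM in every library over 6 genes. The lists for thalamus and striatum summed to more, 38.1 to 45.4 FPKM and 81.9 to 101 FPKM per library over 6 genes each. PENK alone held 53.3 to 73.0 FPKM of the striatum sum. The choroid plexus genes TTR and KCNJ13 were at 309 and 14.4 FPKM in pubertal replicate 3, and at 1.14 to 53.4 and 1.43 to 1.86 FPKM in the other libraries. The pituitary list summed to 53.0 to 66.8 FPKM in the pubertal and 3.67 to 21.1 FPKM in the prepubertal libraries over 6 genes. This sum was mostly CGA, at 39.4 to 62.5 FPKM in the pubertal and 2.24 to 18.0 FPKM in the prepubertal libraries. Of the 6 genes, 3 had stages that did not overlap, against 9.75% of all genes tested. GH1 was at 7.79 FPKM in pubertal replicate 3 and at 0 in the other libraries. FSHB was at 1.09 FPKM there and at 0 to 0.142 FPKM in the others, while CGA had its lowest pubertal value, 39.4 FPKM, there. LHB had means of 0.855 and 0.844 FPKM (pubertal first), and PRL was not matched by symbol. Pubertal replicate 3 was the lowest library for 6 of the 7 transmitter genes, against 21.4% of all 16397 genes tested, and the log2 fold change of each of these genes is given with and without it. The part of these neuron groups and other tissues in the results was not tested.

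The 7 genes spanned a wide range of levels, and the order was alike in both stages. ABAT was the highest, with a mean of 145 ± 6.36 FPKM (SD, n = 6 libraries), which placed it at rank 632 of the 16397 genes tested. SLC17A6 followed with 85.8 FPKM (80.7 to 92.2, n = 6, rank 1188), then GAD1 with 67.4 ± 11.7 FPKM (SD, n = 6, rank 1546) and GAD2 with 51.4 ± 8.72 FPKM (SD, n = 6, rank 2071). SLC32A1 was at 15.1 ± 2.03 FPKM (SD, n = 6, rank 6407), SLC17A8 at 5.98 ± 2.22 FPKM (SD, n = 6, rank 10112) and SLC17A7 at 1.05 ± 0.468 FPKM (SD, n = 6, rank 14015). Each gene lay above the next in 6 of 6 libraries, except that SLC17A6 lay above GAD1 in 5 of 6, so the order of that pair was not fixed. The message for VGLUT1 was scarce.

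**Figure D1:**
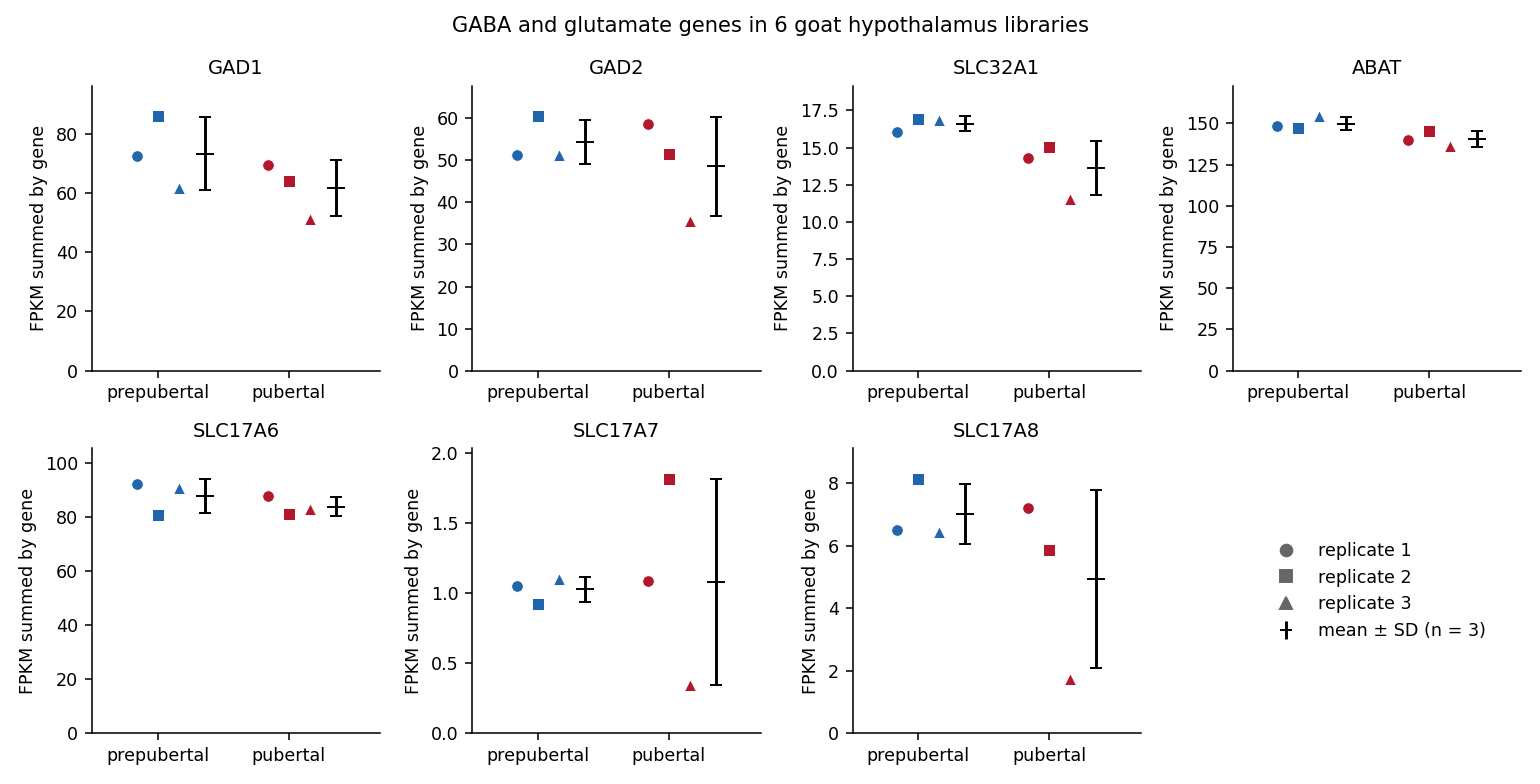
FPKM summed by gene (vertical axes, each from 0) of the 7 transmitter genes in 3 prepubertal (blue) and 3 pubertal (red) libraries, with marker shapes for replicates and black bars for the mean ± SD of 3 libraries. Pubertal replicate 3, the red triangle, is the lowest point for every gene but SLC17A6, while SLC32A1 and ABAT show no overlap between the stages.

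The comparison of the stages asked whether the machinery of either transmitter differed at puberty. All 7 genes had a lower fitted level in the pubertal libraries, as did 50.2% of all genes tested, but ABAT, SLC17A6 and SLC17A7 turned to a higher level (0.033, 0.061 and 0.10 on the log2 scale) with libraries centred on pan-neuronal genes, and the plain mean FPKM of SLC17A7 was higher in the pubertal libraries. None of the 7 passed limma's test at an adjusted p under 0.05 (a count of 0 of 16397 genes, or 0% of them). At an unadjusted p under 0.05 there were 846 genes (5.16%), of which 575 (3.51% of the genes tested) were higher and 271 (1.65%) lower in the pubertal libraries. SLC32A1 was the only one of the 7 among them. The median log2 fold change of the 7 genes was -0.18, beside -0.00065 over all genes tested. Without pubertal replicate 3 the median was -0.071, and 5 of the 7 genes had a value under 0. Fold changes are on log2(FPKM + 1), which understates those of SLC17A7 and SLC17A8 most, and in bulk tissue fewer cells of a type and less RNA per cell cannot be told apart.

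GAD1 read 69.6, 64.1 and 51.2 FPKM in the pubertal goats, beside 72.5, 85.8 and 61.5 FPKM in the prepubertal goats. The stages overlapped, with the highest value in a prepubertal and the lowest in a pubertal goat. Stage means were 61.6 ± 9.44 FPKM and 73.3 ± 12.2 FPKM (SD, n = 3 each, pubertal first). On the log2 scale GAD1 differed by -0.24 (standard error 0.15, 95% interval -0.59 to 0.10, adjusted p = 0.962 from limma). Without pubertal replicate 3 it was -0.12.

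GAD2, whose enzyme serves mostly the GABA made at nerve terminals, read 58.5, 51.4 and 35.7 FPKM in the pubertal goats, beside 51.3, 60.4 and 51.3 FPKM in the prepubertal goats. Only pubertal replicate 3 lay outside the range of the prepubertal goats. GAD2 had a log2 fold change of -0.18 (standard error 0.17, 95% interval -0.58 to 0.21, adjusted p = 0.962 from limma), and it turned to 0.018 without that library. The ratio of GAD1 to GAD2 ran from 1.19 to 1.44 over the 6 libraries, and its means were 1.29 ± 0.129 and 1.34 ± 0.127 (SD, n = 3 each, pubertal first).

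SLC32A1 read 14.3, 15.0 and 11.5 FPKM in the pubertal goats, beside 16.0, 16.9 and 16.9 FPKM in the prepubertal goats. Every pubertal goat lay below every prepubertal goat, a pattern found in 3.84% of all genes tested, while 9.75% were apart in either direction. The means were 13.6 ± 1.84 FPKM (SD, n = 3) and 16.6 ± 0.489 FPKM (SD, n = 3), or 17.9% less at puberty. Between 255 and 505 fragments lay behind each value, and the exact Poisson 95% interval was 13.6 to 16.5 FPKM for the highest pubertal and 14.5 to 17.7 FPKM for the lowest prepubertal goat, which overlap. That of pubertal replicate 3, at 10.2 to 13.1 FPKM, lay below the intervals of all 3 prepubertal goats. The log2 fold change of -0.27 (standard error 0.11, 95% interval -0.54 to -0.012) had an unadjusted p of 0.0423 from limma and an adjusted p of 0.958. Without pubertal replicate 3 the log2 fold change was -0.17, with an unadjusted p of 0.136 from limma.

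ABAT read 139.7, 146 and 136 FPKM in the pubertal goats, beside 148, 147 and 154 FPKM in the prepubertal goats. The stages did not overlap here either, but the gap was narrow, with means of 141 ± 4.65 FPKM (SD, n = 3) and 149.9 ± 3.80 FPKM (SD, n = 3). ABAT had a log2 fold change of -0.092 (standard error 0.078, 95% interval -0.27 to 0.088, adjusted p = 0.962 from limma), which was -0.071 without pubertal replicate 3. ABAT had 3 transcripts in the table, while the other 6 genes had 1 each. XM_005697947.2, of 1492 nt, held between 80.8% and 86.1% of the gene's FPKM in each library. It read 117, 118 and 118 FPKM in the pubertal goats, beside 122, 125 and 131 FPKM in the prepubertal goats. XM_013974927.1, of 2126 nt, held 7.16% to 15.5%, and XM_013974928.1, of 1960 nt, held 3.75% to 8.26%. None of the 9 transcripts of the 7 genes had an adjusted p under 0.05 in the fit over 23821 transcripts (0% called), and none an unadjusted p under 0.05, which 4.87% of the transcripts had. The transcript of SLC32A1 came nearest, with an unadjusted p of 0.0501 from limma on the same values as its gene.

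SLC17A6 was the steadiest of the vesicular transporters. It read 87.7, 81.1 and 82.8 FPKM in the pubertal goats, beside 92.2, 80.7 and 90.6 FPKM in the prepubertal goats. The lowest value belonged to a prepubertal goat, and pubertal replicate 3 was near its stage's mean. Its log2 fold change was -0.064 (standard error 0.087, 95% interval -0.26 to 0.14, adjusted p = 0.969 from limma), and -0.056 without pubertal replicate 3.

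SLC17A8 read 7.21, 5.86 and 1.75 FPKM in the pubertal goats, beside 6.50, 8.13 and 6.43 FPKM in the prepubertal goats. Pubertal replicate 3 was 3.91-fold below the mean of the other 5 libraries, which ran from 5.86 to 8.13 FPKM. The value of that library rested on 69 fragments, with an exact Poisson 95% interval of 1.36 to 2.21 FPKM, and those of the other libraries on 286 to 423 fragments. The log2 fold change went from -0.57 (standard error 0.36, 95% interval -1.41 to 0.27, adjusted p = 0.962 from limma) to -0.089 without that library.

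SLC17A7 read 1.09, 1.81 and 0.345 FPKM in the pubertal goats, beside 1.05, 0.926 and 1.10 FPKM in the prepubertal goats. The pubertal goats held both the highest and the lowest value, and the prepubertal goats were alike. These values rested on 61, 104 and 15 fragments in the pubertal and 51, 53 and 65 fragments in the prepubertal goats, and the exact Poisson 95% interval of the lowest was 0.193 to 0.570 FPKM. Such intervals cover counting error alone. Stage means were 1.08 ± 0.733 and 1.03 ± 0.0908 FPKM (SD, n = 3 each, pubertal first), so the sign of the difference depends on the scale. Its log2 fold change of -0.025 (standard error 0.24, 95% interval -0.58 to 0.53, adjusted p = 0.997 from limma) became 0.26 without pubertal replicate 3.

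The distance of pubertal replicate 3 from the other libraries varied among the 7 genes. Against the mean of the other 5 it was 3.91-fold lower for SLC17A8, 3.46-fold for SLC17A7, 1.53-fold for GAD2, 1.38-fold for GAD1 and 1.37-fold for SLC32A1. For ABAT and SLC17A6 it was 1.08-fold and 1.04-fold lower. Of the 12 pan-neuronal genes tested, which mark neurons of every kind, 7 were lowest in the same library, among them SNAP25, SYT1 and STMN2. Of all genes tested, 21.4% were lowest in that library. The pan-neuronal list summed to 3127 to 3540 FPKM in the pubertal and 3434 to 3873 FPKM in the prepubertal libraries. Of these 12 genes, 11 had a log2 fold change under 0, against 50.2% of all genes tested, with a median of -0.12. An unadjusted p under 0.05 in limma was found for 0 of them, against 5.16% of all genes tested. With each library centred on the pan-neuronal list, the log2 fold change of SLC32A1 was -0.15 with an unadjusted p of 0.240 from limma. This centring moved the median of all genes from -0.00065 to 0.12.

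**Figure D2:**
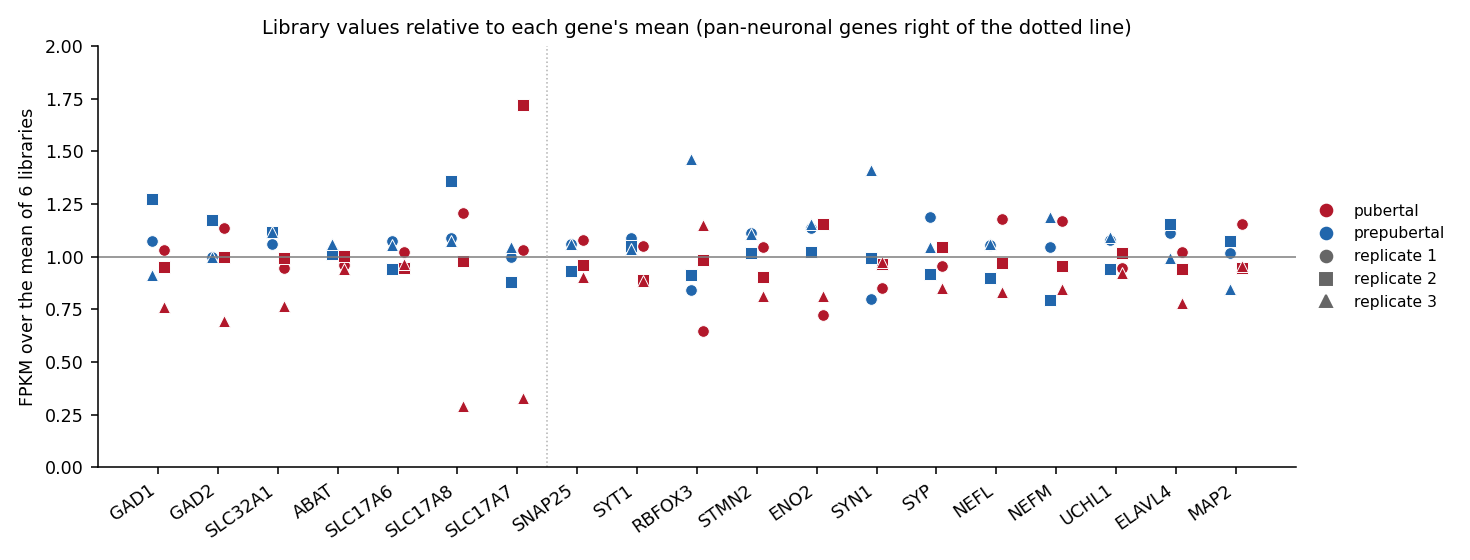
FPKM of each library divided by the mean of the 6 libraries (vertical axis) for the 7 transmitter genes and, right of the dotted line, the 12 pan-neuronal genes, with prepubertal libraries in blue, pubertal in red and marker shapes for replicates. Pubertal replicate 3 lies far below 1 for SLC17A8 and SLC17A7, moderately below for GAD1, GAD2 and SLC32A1, and close to 1 for ABAT and SLC17A6.

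Inhibitory and excitatory genes were then compared within each library, where FPKM, being per length, allows levels of different genes to be set side by side. GAD1, GAD2 and SLC32A1 were each compared with SLC17A6, SLC17A7 and SLC17A8 in 9 pairs. In 8 of the 9 pairs the same gene was higher in all 6 libraries. Each of these 8 had a p of 0.03125 by exact permutation of signs (two-sided), the lowest value possible here, and 0.0352 after adjustment over the 9 pairs. Any pair with the same order in all 6 libraries has this p, whatever its ratio, so the p speaks for that order alone. A bias of a gene's FPKM that is the same in every library would pass this test and was not tested. Every pair with SLC17A7 or SLC17A8 favoured the inhibitory gene. The mean ratio, taken on the log scale, was 70.2 for GAD1 over SLC17A7, 53.5 for GAD2 over SLC17A7 and 15.8 for SLC32A1 over SLC17A7. Over SLC17A8 it was 12.3 for GAD1, 9.38 for GAD2 and 2.77 for SLC32A1, and for each of these the largest ratio was that of pubertal replicate 3.

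Against SLC17A6 the order turned. GAD2 was below SLC17A6 in 6 of 6 libraries, with a mean ratio of 0.592 and single values from 0.431 to 0.749. SLC32A1 was also below SLC17A6 in 6 of 6, with a mean ratio of 0.175 and single values from 0.139 to 0.210. GAD1 was below SLC17A6 in 5 of 6 libraries, with a mean ratio of 0.777, and prepubertal replicate 2 alone had more GAD1 (p = 0.0625, two-sided, by exact permutation of signs). Of the inhibitory genes, the vesicular GABA transporter was thus the one farthest below the most abundant vesicular glutamate transporter.

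**Figure D3:**
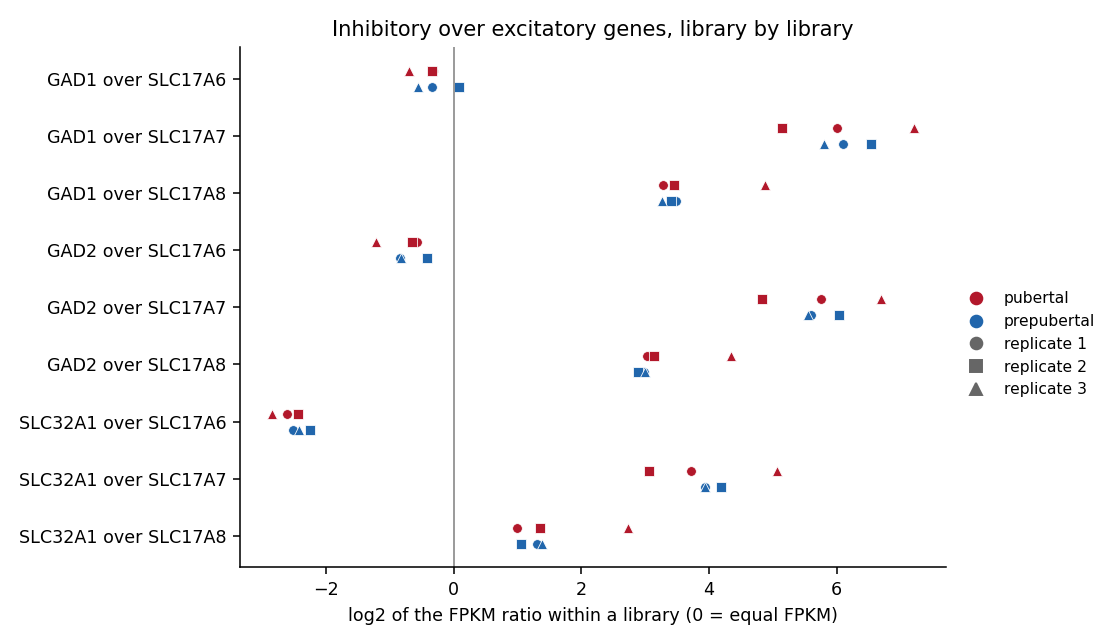
Log2 of the FPKM ratio within a library (horizontal axis, where 0 is equal FPKM) for the 9 pairs of inhibitory over excitatory genes, with prepubertal libraries in blue, pubertal in red and marker shapes for replicates. Points for pairs with SLC17A7 and SLC17A8 all lie right of 0, those for GAD2 and SLC32A1 over SLC17A6 all lie left of it, and GAD1 over SLC17A6 has 1 point on the right.

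The 3 vesicular glutamate transporters summed to between 84.9 and 99.8 FPKM per library, and SLC17A6 supplied 89.9% to 97.5% of this sum. SLC17A8 supplied 2.06% in pubertal replicate 3 and 6.52% to 9.06% in the other libraries. SLC17A7 supplied 0.407% to 2.04%. SLC32A1 over this sum read 0.149, 0.169 and 0.136 in the pubertal goats, beside 0.161, 0.188 and 0.172 in the prepubertal goats. The 2 lowest ratios were pubertal and the 2 highest prepubertal, with overlap between, and the mean log2 ratio was -2.73 ± 0.16 and -2.53 ± 0.12 (SD, n = 3 each, pubertal first). GAD1 plus GAD2 over the same sum read 1.34, 1.30 and 1.02 in the pubertal goats, beside 1.24, 1.63 and 1.15 in the prepubertal goats. These ratios overlapped between the stages, with a mean log2 ratio of 0.28 ± 0.21 and 0.41 ± 0.26 (SD, n = 3 each, pubertal first). With geometric means of 3 inhibitory and 3 excitatory genes in place of sums, the pubertal minus prepubertal difference in log2 ratio was 0.096, against -0.20 for SLC32A1 and -0.13 for GAD1 plus GAD2 over the sum. Without pubertal replicate 3 the difference was -0.13 for SLC32A1 and -0.0075 for GAD1 plus GAD2, and without prepubertal replicate 2 it was -0.14 and 0.020.

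The wider pathway was described with a list of genes for each step. Of the 4 genes measured for GABA uptake and breakdown, 0 had an adjusted p under 0.05. At an unadjusted p under 0.05 in limma, 1 was lower in the pubertal libraries and 0 were higher, against 1.65% and 3.51% of all genes tested. The lower gene was ALDH5A1, the succinate semialdehyde dehydrogenase that completes the GABA breakdown begun by ABAT. It read 27.0, 41.7 and 40.6 FPKM in the pubertal goats, beside 66.4, 67.6 and 62.0 FPKM in the prepubertal goats. Every pubertal goat lay below every prepubertal goat, as in 3.84% of all genes tested. The means were 36.5 ± 8.21 FPKM (SD, n = 3) and 65.3 ± 2.96 FPKM (SD, n = 3), or 1.79-fold less at puberty. ALDH5A1 had a log2 fold change of -0.85 (standard error 0.16, 95% interval -1.21 to -0.48) with an unadjusted p of 0.000679 and an adjusted p of 0.586 from limma, and it ranked 19 of 16397 genes by p. ALDH5A1 had 1 transcript, of 4776 nt, and without pubertal replicate 3 its log2 fold change was -0.94.

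Of the uptake transporters, SLC6A11, the transporter GAT3 of astrocytes, read 57.6, 60.2 and 61.9 FPKM in the pubertal goats, beside 60.8, 54.1 and 61.8 FPKM in the prepubertal goats. The stages overlapped, with a log2 fold change of 0.026. SLC6A13, the transporter GAT2, which is known from meninges and choroid plexus, stood apart in pubertal replicate 3 with 32.01 FPKM, and the other 5 libraries held 3.65 to 5.05 FPKM.

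**Figure D4:**
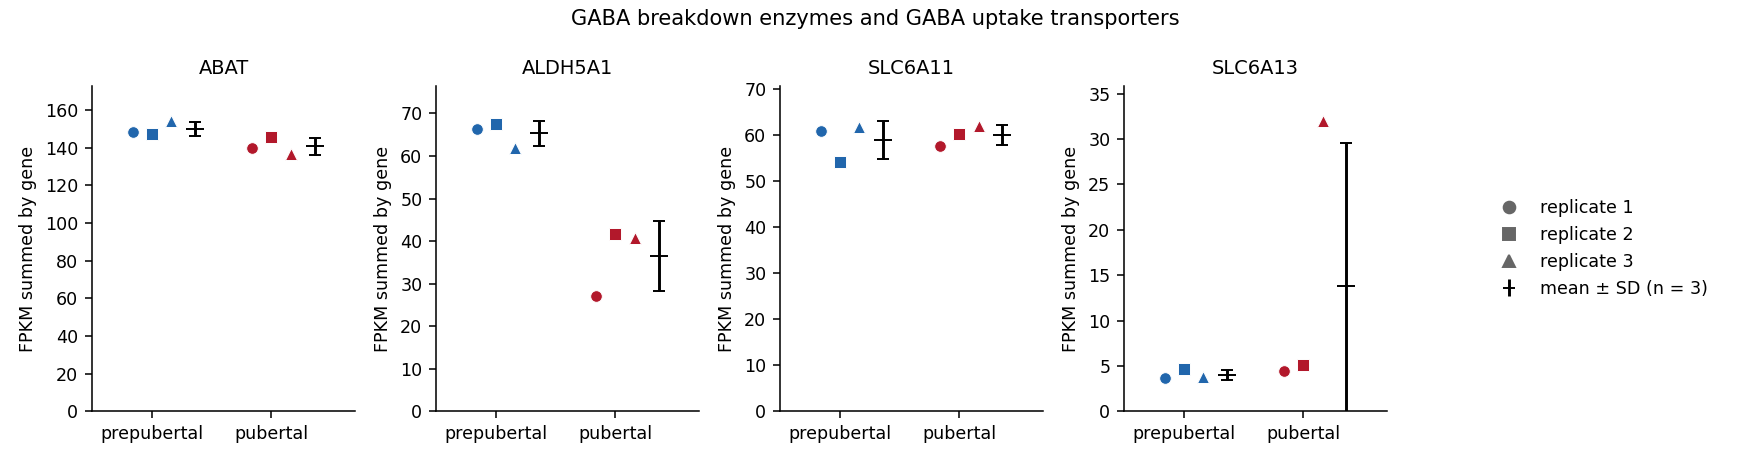
FPKM summed by gene (vertical axes, each from 0) of the GABA breakdown enzymes ABAT and ALDH5A1 and of 2 GABA uptake transporters in 3 prepubertal (blue) and 3 pubertal (red) libraries, with marker shapes for replicates and black bars for the mean ± SD of 3 libraries. ALDH5A1 lies between 27.0 and 41.7 in the pubertal and between 62.0 and 67.6 in the prepubertal libraries, and SLC6A13 is far higher in pubertal replicate 3, with an SD bar that is cut at 0.

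For glutamate supply and uptake 14 genes were measured. In limma 0 of them had an unadjusted p under 0.05 in either direction, against 5.16% of all genes tested. Of the 14, 11 had a log2 fold change under 0, against 50.2% of all genes tested, with a median of -0.10. The summed FPKM of the list was 1988 to 2086 in the pubertal and 2195 to 2286 in the prepubertal libraries, without overlap, but this sum is carried by a few abundant genes. Taken singly, 0 of the 14 genes had stages that did not overlap, against 9.75% of all genes tested. Its most abundant members were SLC1A3, the astrocyte glutamate transporter GLAST, with 639 ± 19.4 and 722 ± 79.2 FPKM (SD, n = 3 each, pubertal first), and GLUL. GLUL, the astrocyte enzyme that turns glutamate into glutamine, had 431 ± 41.8 and 479 ± 60.1 FPKM (SD, n = 3 each), and the stages overlapped.

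Of the relatives and cofactor enzymes of GAD, 0 of 4 had an unadjusted p under 0.05 in limma, against 5.16% of all genes tested. PDXK, which takes part in making the pyridoxal phosphate that GAD needs, was the most abundant of them and had a log2 fold change of 0.11. Of 11 other vesicle proteins and related transporters, 0 had an unadjusted p under 0.05, and their median log2 fold change was 0.049. The most abundant were SV2A, a vesicle protein of most synapses, with 78.9 ± 4.41 and 81.4 ± 5.11 FPKM (SD, n = 3 each, pubertal first), and SLC18A2, the vesicular monoamine transporter, with 35.8 ± 5.44 and 30.6 ± 1.32 FPKM (SD, n = 3 each).

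**Figure D5:**
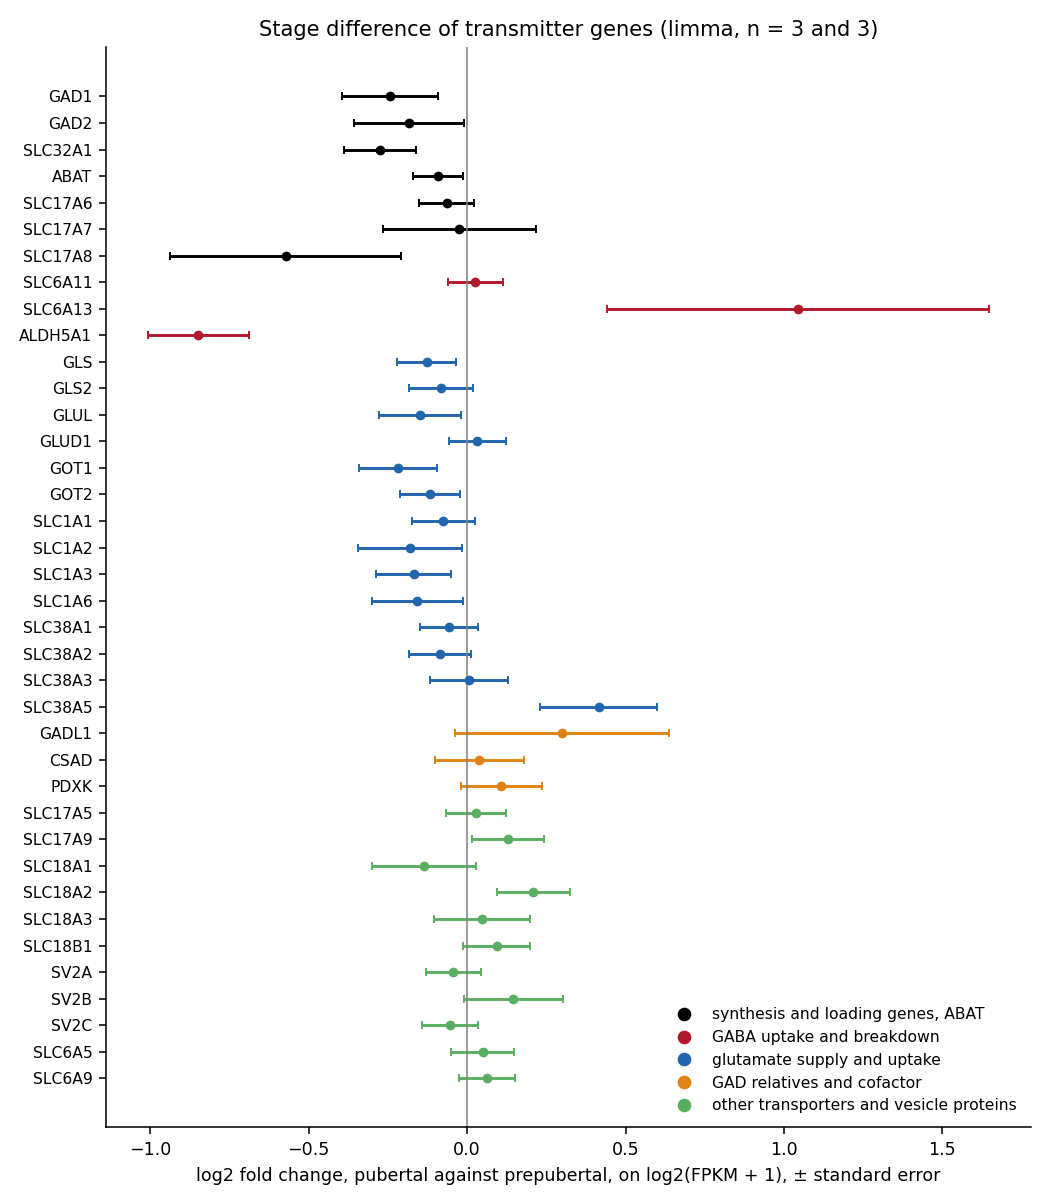
Log2 fold change of pubertal against prepubertal libraries on log2(FPKM + 1) (horizontal axis) with its standard error from limma, n = 3 and 3, for the 7 transmitter genes (black) and for genes of GABA uptake and breakdown (red), glutamate supply and uptake (blue), GAD relatives and cofactor supply (orange) and other transporters and vesicle proteins (green). ALDH5A1 at -0.85 lies farthest left, followed by SLC17A8 at -0.57, and the error bar of SLC6A13 is the widest.

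The 7 genes were finally compared with each other across the 6 libraries on log2(FPKM + 1), in 21 pairs. No pair passed an adjusted p under 0.05 (a count of 0 by exact permutation over 720 pairings), and 4 had an unadjusted p under 0.05. The highest r was 0.978 between GAD2 and SLC17A8 (exact permutation p = 0.00833, adjusted 0.0681), with a Spearman rho of 0.771 (exact permutation p = 0.103, adjusted 0.719). Without pubertal replicate 3 and prepubertal replicate 2, the libraries farthest from the median of GAD2, r was 0.827 over 4 libraries. GAD1 and GAD2 showed an r of 0.878 (exact permutation p = 0.0292, adjusted 0.153) and a rho of 0.657 (exact permutation p = 0.175, adjusted 0.846). Their r was 0.744 without pubertal replicate 3 and 0.354 without the same 2 libraries, so the relation rests on those 2 libraries together. GAD1 and SLC17A8 showed an r of 0.851 (exact permutation p = 0.00972, adjusted 0.0681), a rho of 0.886 (exact permutation p = 0.0333, adjusted 0.613) and an r of 0.848 without pubertal replicate 3 and 0.495 without those 2 libraries, on which it rests together. SLC32A1 and ABAT showed an r of 0.894 (exact permutation p = 0.00972, adjusted 0.0681), a rho of 0.829 (exact permutation p = 0.0583, adjusted 0.613) and an r of 0.979 without those 2 libraries. The permutations ran over both stages, and neither of these genes had stages that overlapped. Their r can therefore not be told apart from a stage difference that both share.

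Among 14080 other genes with a mean of at least 1 FPKM, the genes most like each transmitter gene over the 6 libraries were named by Pearson r, as a description. For GAD1 they were C5H12orf29, RBBP9 and S100PBP, with r of 0.997, 0.994 and 0.981. For GAD2 they were GPR137C, TRAPPC10 and CDC26, with r of 0.994, 0.988 and 0.987, and SLC17A8 ranked 11 among all. For SLC32A1 they were HIKESHI, AZI2 and a gene with no symbol, with r of 0.995, 0.988 and 0.986. For SLC17A6 they were ANAPC15, ZNF608 and GLUL, with r of 0.994, 0.986 and 0.986, and GLUL also belongs to the glutamate supply list. For SLC17A7 they were SH2D5, NME3 and C26H10orf2, with r of 0.995, 0.992 and 0.991. The genes named for GAD1, GAD2, SLC32A1 and SLC17A7 were all lowest in pubertal replicate 3, and with 6 libraries between 23 and 49 genes passed an r of 0.95 with each of the 5 genes.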

How the data were processed

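Hypothalamus RNA of 3 pubertal and 3 prepubertal goats was analysed from the deposited tables. Per the study's methods, ribosomal RNA was removed, strand-specific libraries were sequenced in paired ends, reads were aligned with TopHat and transcripts assembled with Scripture and Cufflinks. The genome build is not given in the sources used here. The submitters' processing notes name Cufflinks and Cuffdiff 2.1.1. The deposited values are FPKM of each transcript in each library, which the authors scaled by length and by a total of fragments of the library. From the authors' comparison table only the transcript length in nt and the link of transcript to gene were used. Its group means, fold changes, p-values and q-values were not. The files hold no read counts, but in genes with 1 transcript FPKM rises in steps of 1 fragment. A line of inverse FPKM on transcript length over values of 1 fragment gave each library's scaling total and length offset, and the 36 values of the 6 transmitter genes with 1 transcript then lay within 0.00615 of a whole fragment count. This step was added after the data were seen. All per-sample columns of the tables were mapped to libraries, with 0 unused.

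FPKM was summed by gene. Gene IDs were matched to symbols in RefSeq's ARS1.2 annotation (19083 of 20225 genes, 94.4%). Genes with a mean of at least 0.1 FPKM were tested with limma 3.58.1 in R 4.3.3 on log2(FPKM + 1), with a trend, two-sided, with Benjamini-Hochberg adjustment over all 16397 genes and a threshold of 0.05, and transcripts likewise. This replaced Cuffdiff, which needs reads. A permutation test of 3 against 3 libraries cannot give a p under 0.1. Ratios and permutations were computed with scipy 1.17.1, pandas 2.3.3 and numpy 2.4.6 in Python 3.11.15, and plots with matplotlib 3.10.9.

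The genes and lists were chosen with earlier results of these data known. The genes named were the 7 transmitter genes, listed pathway genes with an unadjusted p under 0.05 or among the 2 most abundant of their list, and the 3 genes with the highest r for each of 5 transmitter genes. SLC6A13, DLX1, FOXB1, LMX1B and the marker genes were named after their values were seen. The alternatives were another pseudocount, other minimum levels, quantile normalization, centring on the median or on pan-neuronal genes, no trend, a replicate block, the most abundant transcript, and leaving out each library. A few listed genes are counted with their lists but not reported singly here. Protein and promoter sequences were not used here.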

Additional observations from a re-analysis of the deposited data

How the results depend on the processing

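No alternative gave any of the 7 transmitter genes or ALDH5A1 an adjusted p under 0.05 in limma. ALDH5A1 kept a log2 fold change of -0.96 to -0.65 and an unadjusted p under 0.05 under all 14 alternatives, with adjusted p from 0.195 to 1. SLC32A1 stayed lower in the pubertal libraries under all 14, from -0.34 to -0.15, and had an unadjusted p under 0.05 under 8 of them. The count of transmitter genes with an unadjusted p under 0.05, which is 1, became 0 with centring on the pan-neuronal list, with the most abundant transcript and with the replicate block, and ran from 0 to 1 with a library left out (0 without pubertal replicate 3 or any prepubertal replicate). SLC32A1 has 1 transcript, so its log2 fold change of -0.27 was the same with the most abundant transcript. Its unadjusted p went from 0.0423 in limma's fit over genes to 0.0501 in the fit over transcripts. Among the 9 transcripts the count ran from 0 to 1, with 1 without pubertal replicate 1 or 2. Signs turned with pan-neuronal centring for ABAT (0.033), SLC17A6 (0.061) and SLC17A7 (0.10). With a library left out, GAD2 ran from -0.33 to 0.018, turning without pubertal replicate 3, and SLC17A7 from -0.27 to 0.26, turning without pubertal replicate 3 and, at 0.0015, without prepubertal replicate 3. The difference in the log2 ratio of SLC32A1 over the summed vesicular glutamate transporters went from -0.20 to 0.096 with geometric means of 3 and 3 genes, which change both numerator and denominator. That of GAD1 plus GAD2 went from -0.13 to the same 0.096 with geometric means. With a library left out it ran from -0.23 without prepubertal replicate 3 to 0.020 without prepubertal replicate 2. The causes were not tested. With a library left out, the mean log2 ratio of GAD1 over SLC17A6 ran from -0.45 without prepubertal replicate 2 to -0.30 without pubertal replicate 3. All 54 mean ratios of the 9 pairs moved by less than 1 SD. Leaving out 1 of 6 values can never move a mean by more, so this count says nothing on how steady the ratios are.

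Over all genes, the 846 with an unadjusted p under 0.05 ranged from 500 without prepubertal replicate 1 to 2220 without pubertal replicate 1. The count with an adjusted p under 0.05 was 2 with pan-neuronal centring, 1 with the replicate block and from 0 to 4 with a library left out (4 without pubertal replicate 2, 1 without prepubertal replicate 2 or 3). With centring on the library median, 454 genes were higher and 407 lower at an unadjusted p under 0.05, against 575 and 271, the pan-neuronal centring gave 1191 and 51, and leaving out pubertal replicate 1 gave 981 and 1239. The labels name no pairing of goats by replicate number, and the main fit used none. Deviations from the stage means of goats with the same number had r of -0.025, -0.10 and 0.075 over genes, which cannot exclude a pairing. The replicate block left 847 genes at an unadjusted p under 0.05 in limma. Depth limits SLC17A7 most, whose values rest on 15 to 104 fragments.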

Other observations

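Among transcription factors of the GABA and glutamate lineages, 0 of 7 and 1 of 8 had stages that did not overlap. Of all genes tested, 9.75% were apart in either direction. The factor was LMX1B of the glutamate list, at 0.620 to 1.09 FPKM in the pubertal and 0.377 to 0.606 FPKM in the prepubertal libraries (unadjusted p = 0.0750 from limma). Of 7 factors of GABA neurons, among them DLX1 and DLX5, 0 had an unadjusted p under 0.05 in limma. A log2 fold change under 0 was found for 5 of them, against 50.2% of all genes tested, with a median of -0.099. DLX1, the most abundant of them, read 5.91, 6.87 and 4.67 FPKM in the pubertal goats, beside 6.39, 7.41 and 6.12 FPKM in the prepubertal goats, so pubertal replicate 3 was the lowest here too. Of 8 factors of glutamate neurons of the hypothalamus, 0 had an unadjusted p under 0.05 in limma. A log2 fold change under 0 was found for 3 of them, against the same 50.2%, with a median of 0.047. FOXB1, a factor of the mammillary region, varied from 1.97 to 7.74 FPKM among the pubertal and from 2.79 to 7.66 FPKM among the prepubertal goats, while SLC17A6 stayed between 80.7 and 92.2 FPKM.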
